A study of Mus musculus with 4 samples.

Results

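Type B intercalated cell nuclei were examined in single-nucleus RNA libraries of the mouse kidney. They were selected on the UMIs (unique molecular identifiers, 1 per captured RNA molecule) of 8 genes in each barcode. A barcode was taken when it held at least 200 genes and at most 10% mitochondrially encoded UMIs. It also needed at least 2 UMIs of Slc26a4, Slc4a9 and Insrr together with at least 1 of Slc26a4 or Insrr, at most 3 UMIs of the proximal tubule genes Slc34a1, Lrp2, Cubn and Slc27a2 together, and no UMI of Slc4a1. This gate found 901 nuclei among 38481 barcodes that passed the quality limits, of 39074 deposited. There were 4 libraries, 1 for each strain and age, all from female mice: MRL/lpr at 6 weeks, C57BL/6 at 6 weeks, MRL/lpr at 10 weeks and C57BL/6 at 10 weeks. MRL/lpr mice carry the lpr mutation in Fas, which encodes a death receptor, and serve as a model of lupus nephritis. C57BL/6 is another inbred strain, with an intact Fas, and an MRL group with an intact Fas was not analysed here. The lpr allele and the rest of the MRL genome therefore cannot be told apart. The tissue is labelled as kidney, and the series' design text gives renal cortex. How many animals went into a library is not stated, and with 1 library per group no test between strains or ages was made.

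Intercalated cells are the acid-base cells of the connecting tubule and collecting duct. The type B cell secretes bicarbonate into the urine and takes up chloride through pendrin (Slc26a4) in its apical membrane, with a proton pump, the vacuolar H+-ATPase, and the anion exchanger Slc4a9 (AE4) on the side of the blood. The type A cell works in the opposite direction, with the proton pump facing the urine and the exchanger Slc4a1 (AE1) facing the blood, and the principal cells between them handle sodium, potassium and water.

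The libraries held 6466973 to 7660682 UMIs. Type B nuclei had a median of 690.5 UMIs in MRL/lpr and 572 in C57BL/6 at 6 weeks, and 618 in MRL/lpr and 530 in C57BL/6 at 10 weeks, 576619 UMIs in all. Between any pair of libraries 112 to 143 barcodes were identical, at most 1.45% of the smaller library, and 1 barcode was a type B nucleus in 2 libraries. For comparison, 165 type A nuclei had at least 1 UMI of Slc4a1, at least 2 of Slc4a1, Aqp6 and Kit together and none of Slc26a4 or Insrr, with the same limit on proximal genes. A further 2184 principal cell nuclei had at least 1 UMI of Aqp2, at least 2 of Aqp2, Scnn1g and Fxyd4 together and none of Slc26a4, Insrr or Slc4a1, again within the proximal limit. The 17383 proximal tubule nuclei had at least 6 UMIs of the 4 proximal genes and none of the type B genes or Slc4a1. Levels below are in CPM, UMIs scaled to a total of 1000000 in each library and class, and levels of different genes are not set against each other.

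The own genes of the gate chose the nuclei, so their levels are a description. A type B nucleus held a median of 11 UMIs of Slc26a4, Slc4a9 and Insrr together in MRL/lpr and 9 in C57BL/6 at 6 weeks, and 12 in MRL/lpr and 8 in C57BL/6 at 10 weeks, and the highest nucleus had 31. A UMI of Slc26a4 was seen in 222 of 224 nuclei in MRL/lpr and 230 of 242 in C57BL/6 at 6 weeks, and in 190 of 192 in MRL/lpr and 234 of 243 in C57BL/6 at 10 weeks. Slc4a9 was seen in 95.5 to 98.4% of the nuclei of a library. Insrr is a receptor of the insulin receptor family that is activated by alkaline pH. It was seen in 52.2% in MRL/lpr and 66.5% in C57BL/6 at 6 weeks, and 53.1% in MRL/lpr and 51.4% in C57BL/6 at 10 weeks. All 3 genes were found together in 50% in MRL/lpr and 60.3% in C57BL/6 at 6 weeks, and 51.0% in MRL/lpr and 45.7% in C57BL/6 at 10 weeks.

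Slc26a4 reached 7068 CPM in MRL/lpr and 6439 CPM in C57BL/6 at 6 weeks, and 8726 CPM in MRL/lpr and 6398 CPM in C57BL/6 at 10 weeks. It had no UMI in type A, principal or proximal nuclei, where the gates required this. Slc4a9 gave 7328 to 8767 CPM in type B nuclei and 2833 to 4537 CPM in type A nuclei, whose gate did not use it, so the exchanger was carried by both intercalated types. Only 11 of the 901 nuclei stood at the lower limit of 2 UMIs. Together they held 5268 UMIs and none of Hmx2. They had 3797 CPM of the sodium-calcium exchanger Slc8a1, 949 CPM of Aqp2 and 3797 CPM of the carbonic anhydrase Car12. Of the barcodes just outside, 140 had 1 UMI of Slc26a4 or Insrr and none of the other own genes. This pool had 12441 CPM of Slc8a1, 750 CPM of Aqp2, 404 CPM of Car12 and no UMI of Hmx2. All type B nuclei together had 1143 CPM of Slc8a1, 260 CPM of Aqp2, 3831 CPM of Car12 and 867 CPM of Hmx2. The 11 nuclei at the limit thus lacked Hmx2 like the pool outside, with Slc8a1 between both and Car12 near all type B nuclei. A further 227 barcodes had at least 2 UMIs of Slc4a9 alone, with 1342 CPM of Adgrf5 and 105 CPM of Hmx2. At the proximal limit, the 5 nuclei inside it with 3 proximal UMIs had 609 CPM of Hmx2 and the 7 barcodes outside it with 4 had 261 CPM. In all, 157 barcodes that met the other limits were left out for 4 or more proximal UMIs. These had 214 CPM of Hmx2, 1611 CPM of Car12 and 2183 CPM of the proximal gene Slc5a12, which had 64.2 CPM in type B nuclei. A further 5 barcodes were left out for a UMI of Slc4a1.

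The label was checked with markers outside the gate. Hmx2, a homeobox transcription factor gene, had 146 UMIs in MRL/lpr and 160 UMIs in C57BL/6 at 6 weeks, and 84 UMIs in MRL/lpr and 110 UMIs in C57BL/6 at 10 weeks. Type A nuclei had none in any library, and the 2184 principal nuclei had 2 UMIs in all. Foxi1, the forkhead factor that intercalated cells need to form, reached 418 CPM in MRL/lpr and 491 CPM in C57BL/6 at 6 weeks. At 10 weeks Foxi1 had 313 CPM in MRL/lpr and 212 CPM in C57BL/6. Type A nuclei had 195 to 357 CPM, and the ranges of both types overlapped. Principal nuclei had 3.41 to 6.28 CPM of Foxi1. The 15 genes shared by intercalated cells summed to 13887 CPM in MRL/lpr and 14909 CPM in C57BL/6 at 6 weeks, and 14664 CPM in MRL/lpr and 14962 CPM in C57BL/6 at 10 weeks. Principal nuclei had 4215 to 5554 CPM.

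Markers of other cell types in type B nuclei were summed by list. The 6 type A markers summed to 190.5 to 297 CPM in type B nuclei and 6202 to 10142 CPM in type A nuclei, with Slc4a1, which the gate sets to 0, and Slc26a7 without a UMI. The 8 principal cell markers summed to 1212 CPM in MRL/lpr and 666 CPM in C57BL/6 at 6 weeks, and 478 CPM in MRL/lpr and 494 CPM in C57BL/6 at 10 weeks, and to 14535 to 19178 CPM in principal nuclei. The 4 connecting tubule markers summed to 2564 to 3862 CPM in type B nuclei and 21564 to 29511 CPM in principal nuclei. Macrophage and dendritic markers reached 54.6 to 231 CPM, with at least 3 of the 8 genes at 0 in every library. Lymphocyte markers reached 6.73 to 42.4 CPM, with at least 7 of the 10 genes at 0. Distal convoluted tubule markers summed to 1315 to 1954 CPM and thick ascending limb markers to 497 to 1065 CPM. Endothelial markers summed to 194 to 431 CPM, podocyte markers to 48.5 to 219 CPM and fibroblast and mural markers to 36.4 to 114 CPM. As a measure of proximal RNA in these barcodes, genes of the proximal tubule outside the gate stood at 8.97% in MRL/lpr and 6.94% in C57BL/6 at 6 weeks, and 5.32% in MRL/lpr and 5.66% in C57BL/6 at 10 weeks of their level in proximal nuclei.

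**Figure D1:**
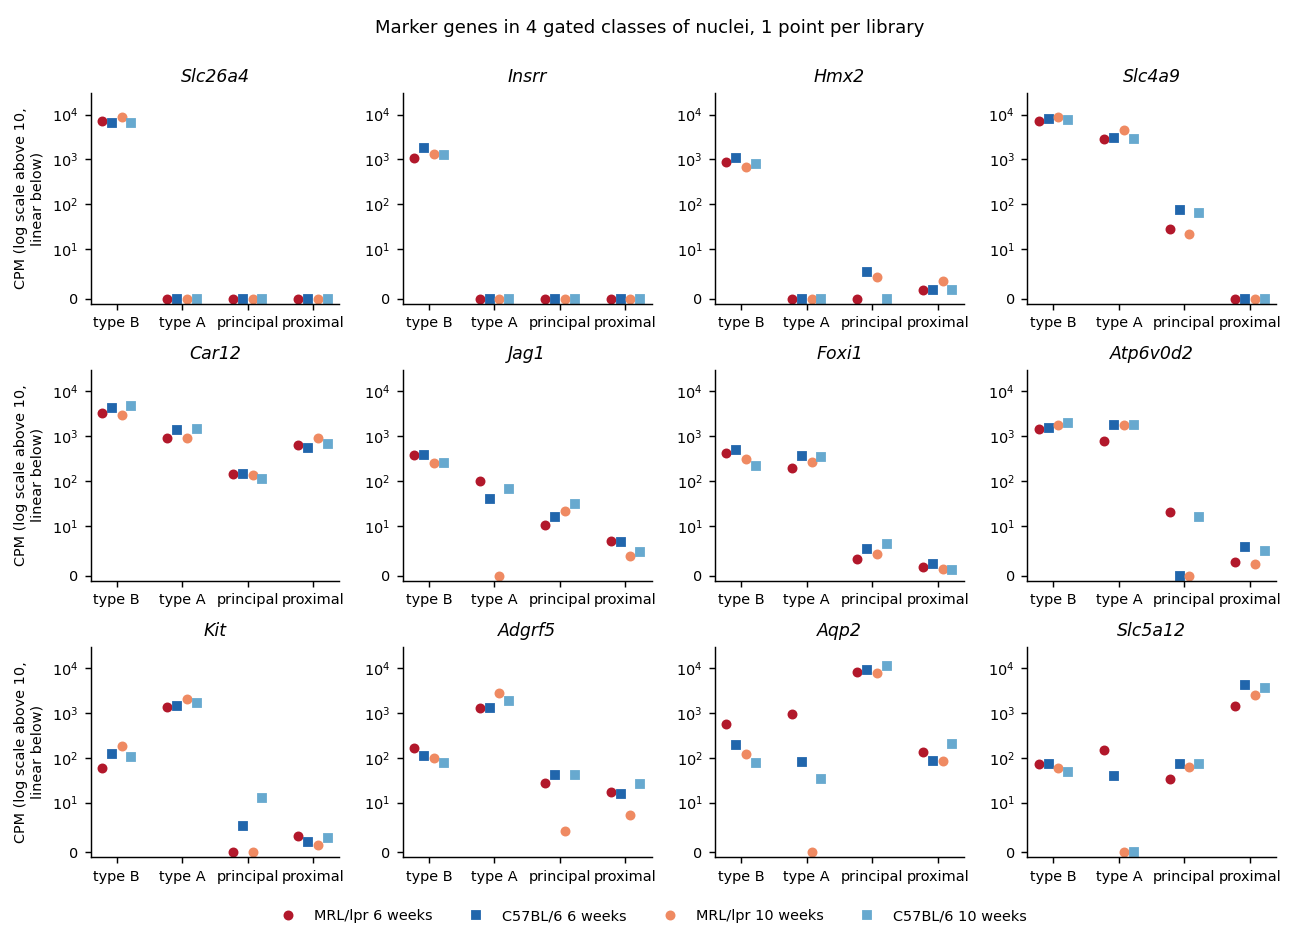
CPM of 12 genes in type B, type A, principal and proximal nuclei, 1 point for each of the 4 libraries, on an axis that is logarithmic above 10 CPM and linear below. Slc26a4, Insrr, Slc4a9, Kit and Aqp2 took part in gates. Hmx2, outside the gate, stands at 693 to 1076 CPM in type B nuclei and at 0 in type A nuclei.

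Within the 901 nuclei, Hmx2 was seen in 36.6% in MRL/lpr and 39.3% in C57BL/6 at 6 weeks, and 27.1% in MRL/lpr and 31.7% in C57BL/6 at 10 weeks. With each nucleus thinned to 400 UMIs, which left out 6 to 26 nuclei of a library, the shares were 27.5% in MRL/lpr and 33.3% in C57BL/6 at 6 weeks, and 23.6% in MRL/lpr and 26.3% in C57BL/6 at 10 weeks. The exact binomial (Clopper-Pearson) 95% intervals, which cover counting error only, ran from 17.6 to 39.9% over the libraries. In proximal nuclei, with medians of 772 to 895 UMIs, 0.171 to 0.270% had a UMI of Hmx2. The 306 nuclei with Hmx2 and the 595 without it had 7285 and 6978 CPM of Slc26a4, and 439 and 322 CPM of Foxi1. Kit, the receptor of stem cell factor and a gene of the type A gate, was seen in 52 type B nuclei. These 52 nuclei held 1346 CPM of Hmx2 and 181 CPM of Adgrf5, whereas type A nuclei had no UMI of Hmx2 and 1269.8 to 2758 CPM of Adgrf5. Aqp2, the water channel of principal cells, was found in 51 type B nuclei. Thinned, its shares in type B nuclei were 4.59% in MRL/lpr and 4.44% in C57BL/6 at 6 weeks, and 1.69% in MRL/lpr and 1.84% in C57BL/6 at 10 weeks. Unthinned, they were 7.14% in MRL/lpr and 7.85% in C57BL/6 at 6 weeks, and 2.60% in MRL/lpr and 4.53% in C57BL/6 at 10 weeks, with 4.06 to 7.82% in proximal nuclei. The exact 95% interval of each thinned share held that of the proximal nuclei of its own library, 1.90 to 4.02% over the 4. The summed level in MRL/lpr 6 weeks was 582 CPM in type B nuclei and 137 CPM in proximal nuclei. The 51 nuclei held 510 CPM of the principal cell gene Hsd11b2, against 71.1 CPM over all 901, and the part of principal cell RNA in these nuclei was not tested.

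Type B nuclei made up 2.39% (95% interval 2.09 to 2.72%) of barcodes in MRL/lpr and 2.42% (2.13 to 2.74%) in C57BL/6 at 6 weeks, and 2.02% (1.75 to 2.33%) in MRL/lpr and 2.53% (2.22 to 2.86%) in C57BL/6 at 10 weeks. These were 224 nuclei in MRL/lpr and 242 in C57BL/6 at 6 weeks, and 192 in MRL/lpr and 243 in C57BL/6 at 10 weeks. The MRL/lpr share divided by the C57BL/6 share gave 0.989 (0.821 to 1.19) at 6 weeks. At 10 weeks this ratio was 0.801 (0.659 to 0.972). The 10-week share was 0.846 times (0.694 to 1.03) the 6-week share in MRL/lpr and 1.05 times (0.871 to 1.25) in C57BL/6. The libraries differed in the lowest depth of a barcode, from 175 UMIs in MRL/lpr 10 weeks to 308 in MRL/lpr 6 weeks. Among barcodes with at least 400 UMIs the shares were 2.58% in MRL/lpr and 3.08% in C57BL/6 at 6 weeks, and 2.36% in MRL/lpr and 2.92% in C57BL/6 at 10 weeks. The strain ratios then were 0.838 (0.692 to 1.01) at 6 weeks and 0.807 (0.658 to 0.988) at 10 weeks. Only counting error enters these intervals, and a share of nuclei can shift through any other class.

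**Figure D2:**
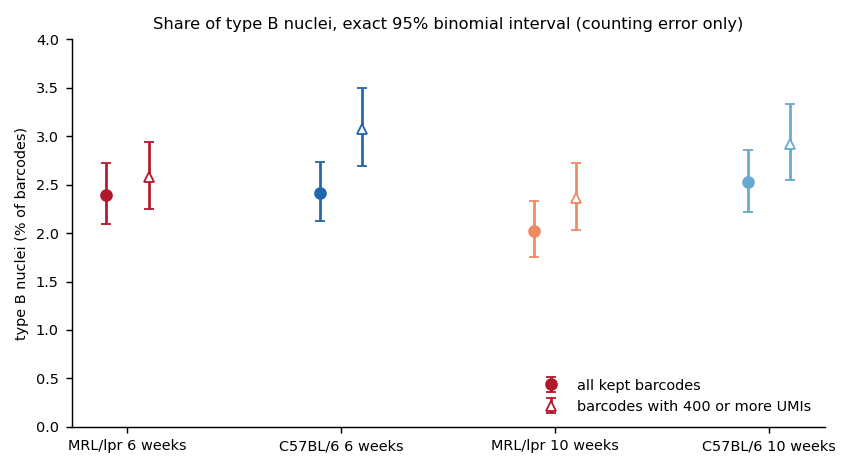
Type B nuclei as a percentage of barcodes in each library, with exact 95% binomial intervals for counting error, over all kept barcodes (filled circles) and over barcodes with at least 400 UMIs (open triangles). The MRL/lpr 10 weeks library has the lowest share in both, at 2.02% and 2.36%.

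Of the nuclei gated as intercalated, type B made up 87.2% in MRL/lpr and 83.7% in C57BL/6 at 6 weeks, and 88.1% in MRL/lpr and 80.5% in C57BL/6 at 10 weeks. These shares depend on the type A gate. A wider gate, chosen after seeing the data, also took as type A the barcodes with at least 2 UMIs of Slc4a9 and none of Slc26a4 or Insrr, within the proximal limit. With it, type A nuclei numbered 89 in MRL/lpr and 109 in C57BL/6 at 6 weeks, and 97 in MRL/lpr and 117 in C57BL/6 at 10 weeks, and the shares of type B were 71.6% in MRL/lpr and 68.9% in C57BL/6 at 6 weeks, and 66.4% in MRL/lpr and 67.5% in C57BL/6 at 10 weeks.

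Type B and type A nuclei of the same libraries were compared on summed UMIs with edgeR's quasi-likelihood test, blocked by library and Benjamini-Hochberg adjusted over 1871 genes. Calls needed an adjusted p under 0.05 and at least a 2-fold change. At these limits 54 genes were higher (2.89%) and 39 lower (2.08%) in type B nuclei. The genes higher in type B included the regulator Hmx2, the adhesion molecule gene Lsamp, the vesicle and transport genes Syt7, Nbea and Myo5a, the carbonic anhydrase Car12 and the calcium-sensing receptor Casr. Those lower included the adhesion receptor Adgrf5, the peptidase neprilysin (Mme), the fucosyltransferase Fut8 and the antimicrobial peptide Defb1. DESeq2 called 35 higher and 28 lower, and the 165 type A nuclei held only 11240 to 29707 UMIs in a library. Type A nuclei also carried 2323 to 7326 CPM of connecting tubule markers, and the part of these in the result was not tested.

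Hmx2 had 500 UMIs in type B and 0 in type A nuclei, at least 25.0-fold higher against a floor of 3 UMIs for all type A nuclei (adjusted p = 1.72e-10). Ripor2, Myo5a, an actin motor for vesicles, 4930469K13Rik and Syt7, a calcium sensor of vesicle release, were also at 0 in type A nuclei, and were at least 13.2, 9.21, 10.7 and 7.61-fold higher in type B nuclei. Lsamp, a cell adhesion molecule best known from neurons, had 4628 UMIs in type B against 2 in type A nuclei, 348-fold (95% interval 96.2 to 2871) by counting error. It was higher in 4 of 4 libraries, as the choice of named genes required (log2 fold change 8.31, SE 0.87, adjusted p = 6.53e-24). Here and below the SE is that of the log2 difference over the 4 libraries with 10 CPM added. In type B nuclei Lsamp stood at 9226 CPM in MRL/lpr and 6237 CPM in C57BL/6 at 6 weeks, and 11365 CPM in MRL/lpr and 5650.5 CPM in C57BL/6 at 10 weeks. Both MRL/lpr libraries were above both C57BL/6 libraries. It was seen in 80.6 to 94.3% of type B nuclei and in 0.862 to 1.31% of proximal nuclei.

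Nbea, a scaffold of membrane traffic, had 2254 to 2673 CPM in type B nuclei and 3 UMIs in all in type A nuclei, 71.9-fold (95% interval 24.6 to 349). The zinc transporter Tmem163 (813 ± 137 CPM in type B and 34.5 ± 43.0 CPM in type A nuclei, SD, n = 4 libraries), Thsd7a, the pyrophosphate exporter Ank, Sh2d4b and the microtubule protein gene Rp1 completed the 12 largest, with log2 fold changes of 5.08, 4.98, 4.53, 4.52 and 3.88. With the wider type A gate, Hmx2 and Lsamp were still called, with log2 fold changes of 3.92 and 4.08, and those type A nuclei had 57.6 CPM of Hmx2 and 465 CPM of Lsamp.

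Among genes lower in type B nuclei, Defb1, an antimicrobial beta-defensin, had the smallest SE among the named ones, with 385 ± 62.6 CPM in type B and 2516 ± 463 CPM in type A nuclei (SD, n = 4; log2 fold change -2.62, SE 0.03, adjusted p = 1.24e-13). Adgrf5, an adhesion G protein-coupled receptor that takes part in the control of acid secretion by type A cells, had 77.6 to 164 CPM in type B and 1269.8 to 2758 CPM in type A nuclei (log2 fold change -3.83, SE 0.42, adjusted p = 3.21e-14). Slc35f1, Lrrc31, Fut8, Mme, Kctd8, Pitpnc1, the monocarboxylate transporter Slc16a11, the HMG-box factor Tox, the calcium channel subunit Cacnb2 and Cttnbp2 were lower as well, with log2 fold changes of -4.96, -4.27, -4.24, -4.05, -3.96, -3.48, -2.91, -2.69, -2.55 and -2.28. Each was lower in 4 of 4 libraries, which the choice of named genes required. The count of lower genes was 24 without the C57BL/6 10 weeks library, which held 59 of the 165 type A nuclei. Dmrt2, a transcription factor gene of type A cells, was too low for the test, with 3 UMIs in type B and 33 in type A nuclei.

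**Figure D3:**
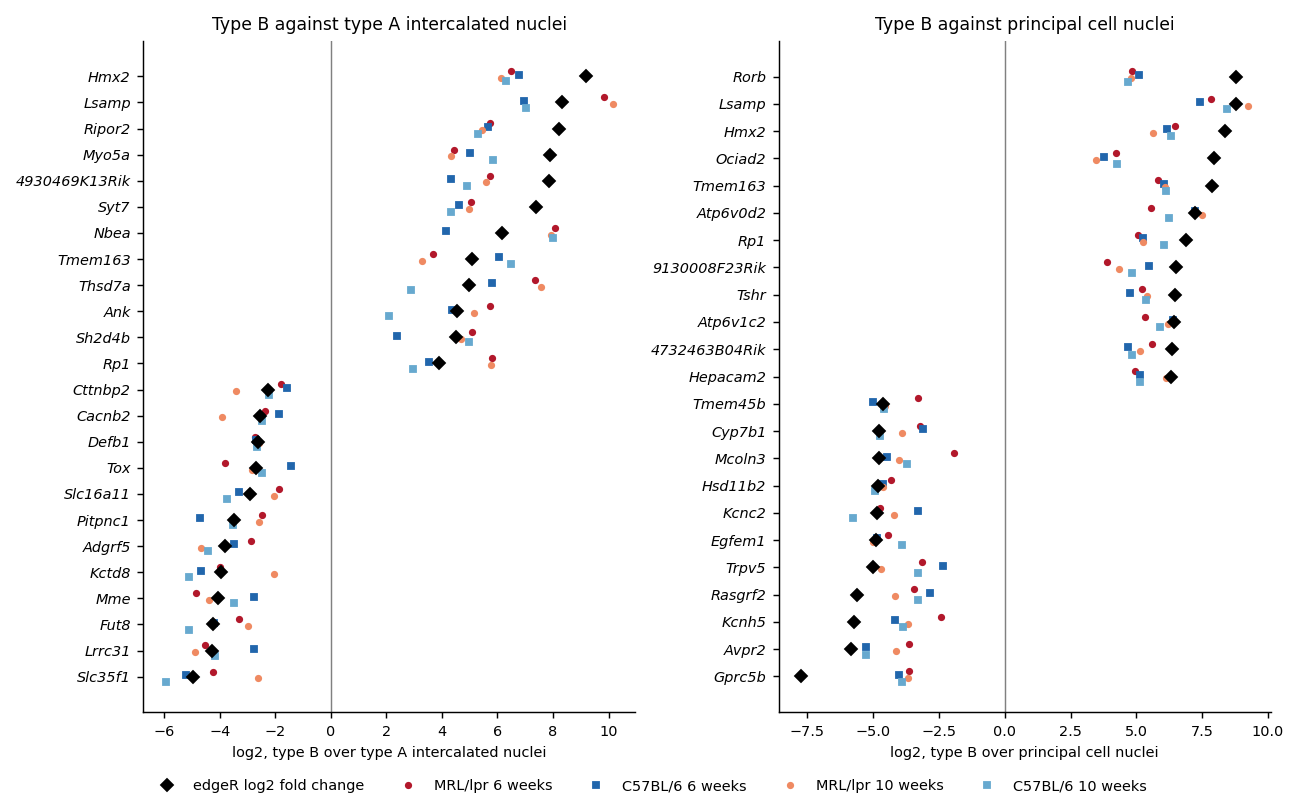
Log2 ratio of type B over type A nuclei (left) and over principal nuclei (right) for the named genes with the largest changes in each direction. Coloured points are the 4 libraries, with 10 CPM added to both classes, and black diamonds are edgeR log2 fold changes, which lie farther from 0 for genes near 0 in one class. In every named gene the 4 libraries fall on the same side of 0, which the choice of named genes required.

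Against principal nuclei 4707 genes were tested in the same way, and 368 were higher (7.82%) and 416 lower (8.84%) in type B nuclei. Higher genes were led by Rorb, an orphan nuclear receptor, with 247 to 336 CPM in type B and 0 UMIs in principal nuclei, at least 96.5-fold higher. They also held Lsamp, Hmx2, Ociad2, Tmem163, the proton pump subunits Atp6v0d2 and Atp6v1c2, Rp1, 9130008F23Rik, 4732463B04Rik and Hepacam2. Tshr, the receptor of thyrotropin, had 577 ± 73.2 CPM in type B and 6.16 ± 3.18 CPM in principal nuclei (SD, n = 4; log2 fold change 6.48, SE 0.15, adjusted p = 4.58e-19). The lower genes included markers of the principal cell and, with Trpv5, of the connecting tubule. Principal nuclei carried 21564 to 29511 CPM of connecting tubule markers, and the part of these in the result was not tested. Gprc5b was at 0 UMIs in type B nuclei and 134 in principal nuclei, at least 25.0-fold lower. Hsd11b2, which keeps cortisol and corticosterone off the mineralocorticoid receptor, had 71.5 ± 8.41 CPM in type B and 2049.8 ± 465 CPM in principal nuclei (log2 fold change -4.82, SE 0.13, adjusted p = 1.07e-20). The vasopressin receptor Avpr2, the potassium channels Kcnh5 and Kcnc2, Rasgrf2, the calcium channel Trpv5, Egfem1, Mcoln3, the oxysterol hydroxylase Cyp7b1 and Tmem45b were lower too, with log2 fold changes between -5.83 and -4.62.

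The proton pump was described with a list of 24 genes. Against type A nuclei 18 of them could be tested, and none was called by edgeR or by DESeq2 at an adjusted p under 0.05 with a 2-fold change, while 3 had an unadjusted p under 0.05 in edgeR. Over all genes tested, edgeR called 2.89% higher and 2.08% lower. The median log2 fold change was 0.29 over the list and 0.03 over all genes tested. Atp6v1c2, a subunit C isoform (log2 fold change 0.70, SE 0.15, adjusted p = 0.0161), and Atp6v0b (log2 fold change 0.56, SE 0.08, adjusted p = 0.0212) passed the p but changed less than 2-fold. With no filter on low counts edgeR called Atp6v1c2 (log2 fold change 1.13, adjusted p = 1.32e-05). The 24 genes summed to 15447 to 16111 CPM in type B and 12796 to 15392 CPM in type A nuclei. Against principal nuclei 20 could be tested, of which 13 were higher and none lower, with a median of 1.5 over the list and 0.01 over all genes tested. Over all genes tested there, 7.82% were higher and 8.84% lower.

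Subunit isoforms differed in the size of this change. Atp6v0d2, an isoform of the d subunit, reached 1412 CPM in MRL/lpr and 1500.3 CPM in C57BL/6 at 6 weeks, and 1773 CPM in MRL/lpr and 1947 CPM in C57BL/6 at 10 weeks. Principal nuclei had 0 to 20.5 CPM, with no overlap (log2 fold change 7.22, SE 0.45, adjusted p = 8.38e-21). Atp6v1c2 had 1509.6 to 1716 CPM in type B and 10.6 to 30.7 CPM in principal nuclei, a log2 fold change of 6.41. Atp6v1g3, the G subunit isoform of the kidney, had 1121 to 2081 CPM in type B and 8.70 to 99.0 CPM in principal nuclei, a log2 fold change of 4.40. The common subunits Atp6v0b, Atp6v0c, Atp6v1a, Atp6v1d, Atp6v1e1 and Atp6v1h, the accessory genes Atp6ap1 and Atp6ap2 and the isoforms Atp6v1b1 and Atp6v0a4 were higher by 1.04 to 2.29 on the log2 scale. Atp6v1e1 dropped under 2-fold when a 10-week library was left out, at 0.93 without MRL/lpr and 0.94 without C57BL/6. Of the alternative isoforms, Atp6v0d1 had 90.7 to 155 CPM in type B and 82.6 to 179.8 CPM in principal nuclei (log2 fold change -0.06, adjusted p = 0.884) and did not pass the test. Atp6v1c1 had 49.5 to 84.9 CPM in type B and 34.8 to 72.2 CPM in principal nuclei (log2 fold change 0.41, adjusted p = 0.355) and did not pass it either. Atp6v1b2 was at 74.2 to 209 CPM in type B and 73.9 to 116 CPM in principal nuclei (log2 fold change 0.76, adjusted p = 0.0227, under 2-fold).

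**Figure D4:**
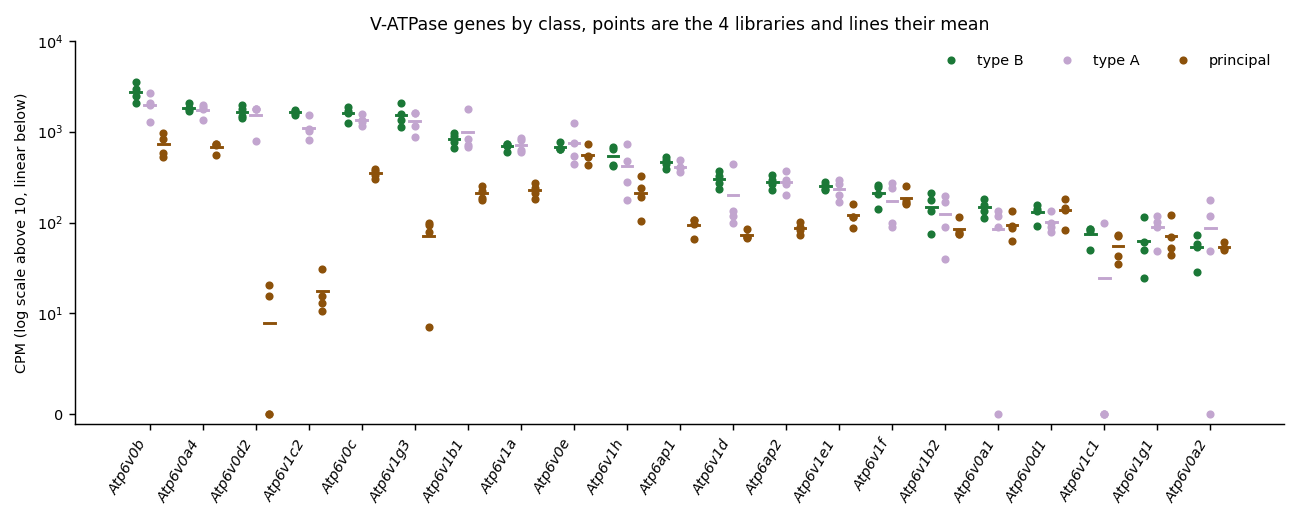
CPM of the 21 proton pump genes with at least 30 UMIs in type B nuclei, in type B, type A and principal nuclei; points are the 4 libraries and lines their means, on an axis that is logarithmic above 10 CPM. Atp6v0d2, Atp6v1c2 and Atp6v1g3 are the genes with principal nuclei farthest below type B nuclei, at 7.22, 6.41 and 4.40 on the log2 scale.

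Chloride and bicarbonate transport was covered by 35 genes. Car12, a membrane-bound carbonic anhydrase, reached 3382 CPM in MRL/lpr and 4259 CPM in C57BL/6 at 6 weeks, and 2969 CPM in MRL/lpr and 4642 CPM in C57BL/6 at 10 weeks. Type A nuclei had 889.7 to 1447 CPM and principal nuclei 109.9 to 143 CPM of Car12, and all 4 type B values lay above both. Car12 was higher in both tests (against type A log2 fold change 1.80, SE 0.05, adjusted p = 6.18e-11, and against principal nuclei log2 fold change 4.82, SE 0.21, adjusted p = 4.6e-22). Over all genes tested against type A, 2.89% were higher and 2.08% lower. Of 13 genes of the list tested against type A, 3 were higher and none lower, with a median of -0.06 over those tested. These were Car12, Car15 (log2 fold change 1.82, adjusted p = 0.00518) and the endosomal chloride transporter Clcn3 (log2 fold change 1.57, adjusted p = 0.0124). DESeq2 called 1 of the 3, Car12. Car15 had an adjusted p of 0.0949 by DESeq2, and by edgeR of 0.183 without C57BL/6 6 weeks and 0.0894 without C57BL/6 10 weeks. Clcn3 had an adjusted p of 0.17 by DESeq2, and by edgeR of 0.15 without MRL/lpr 6 weeks and 0.152 without C57BL/6 6 weeks. The cytosolic carbonic anhydrase Car2 did not pass the test against type A nuclei (log2 fold change -0.19, SE 0.24, adjusted p = 0.723) and was higher than in principal nuclei (log2 fold change 2.61, SE 0.06, adjusted p = 2.86e-16).

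Against principal nuclei 17 of the transport genes were tested, with a median of 0.22, and Car12, Car2, Clcn5 and the chloride channel subunit Bsnd were higher and Slc4a4, Kcnj10 and Kcnj16 lower. Over all genes tested there, 7.82% were higher and 8.84% lower. The basolateral potassium channel genes Kcnj10 and Kcnj16 fell by 2.99 and 3.08 on the log2 scale. Slc4a8, a sodium-driven exchanger placed beside pendrin in models of sodium chloride uptake by type B cells, had 5 UMIs in MRL/lpr and 1 UMI in C57BL/6 at 6 weeks, and 2 UMIs in MRL/lpr and 2 UMIs in C57BL/6 at 10 weeks. This was 6.73 to 30.3 CPM, and principal nuclei had 13.7 to 39.1 CPM. The H,K-ATPase gene Atp12a had 2 UMIs in all type B nuclei, and Atp4a 35.3 to 60.6 CPM. Cftr, the chloride channel, had 4 UMIs over the 4 libraries.

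The promoters of Atp6v1b1 and Car12, both higher in type B than in principal nuclei, and of Slc26a4, a gene of the gate, are shown, since Foxi1 is a forkhead factor and Atp6v1b1 a known target of it. The windows below are the 250 bases before the RefSeq start on GRCm38.p6, read on the strand of the gene from 5′ to 3′. Capitals mark TGTTTA, core letters bound by forkhead factors, searched on both strands (TAAACA on the other).
Atp6v1b1, chr6:83742767-83743016, + strand: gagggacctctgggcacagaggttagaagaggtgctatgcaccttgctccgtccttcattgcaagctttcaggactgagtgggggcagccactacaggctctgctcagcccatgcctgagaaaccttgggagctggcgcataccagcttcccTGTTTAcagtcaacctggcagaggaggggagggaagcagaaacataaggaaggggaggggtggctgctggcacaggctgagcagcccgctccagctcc
Car12, chr9:66713436-66713685, + strand: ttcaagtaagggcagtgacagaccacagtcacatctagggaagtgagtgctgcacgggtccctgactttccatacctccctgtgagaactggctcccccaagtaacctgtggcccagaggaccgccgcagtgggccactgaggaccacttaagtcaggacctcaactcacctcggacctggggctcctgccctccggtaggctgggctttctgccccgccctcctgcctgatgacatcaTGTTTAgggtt
Slc26a4, chr12:31559985-31560234, - strand: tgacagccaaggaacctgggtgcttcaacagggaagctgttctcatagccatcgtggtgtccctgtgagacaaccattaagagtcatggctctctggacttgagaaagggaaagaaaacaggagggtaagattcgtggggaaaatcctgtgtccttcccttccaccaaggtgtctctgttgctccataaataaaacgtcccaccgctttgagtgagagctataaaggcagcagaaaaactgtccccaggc
The windows of Atp6v1b1 and Car12 hold the letters once and that of Slc26a4 does not. The letters are held by 3952 of all 32851 windows of this length (12%). Among the 38 genes of the type B, shared intercalated and proton pump lists, 26 had a window, and 2 of their 33 windows (6.06%), those of Atp6v1b1 and P2ry14, hold the letters.

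Of the 15 shared intercalated genes 14 were tested. Over all genes tested, 2.89% were higher and 2.08% lower than in type A nuclei. Against type A nuclei Hepacam2, a cell surface protein gene, was higher (612 to 706 CPM in type B and 89.0 to 198 CPM in type A nuclei, log2 fold change 2.02, SE 0.27, adjusted p = 3.58e-05). The immune-type adaptor Clnk was lower (155 to 339 CPM in type B and 488 to 1111 CPM in type A nuclei, log2 fold change -1.60, SE 0.20, adjusted p = 6.38e-05). The ammonia channel Rhbg and the factor Tfcp2l1 passed the p with changes under 2-fold, at -0.98 and -0.56 on the log2 scale. Rhbg passed the 2-fold limit as well when an MRL/lpr library was left out, at -1.07 without 6 weeks and -1.09 without 10 weeks. Against principal nuclei 10 were higher and none lower, with a median of 2.30 over the 14, beside 7.82% higher and 8.84% lower over all genes. Rhbg, Rhcg and Tfcp2l1 were among those not called there.

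Receptor and signalling genes numbered 27. Casr, the calcium-sensing receptor, had 58 UMIs in MRL/lpr and 28 UMIs in C57BL/6 at 6 weeks, and 32 UMIs in MRL/lpr and 31 UMIs in C57BL/6 at 10 weeks. Casr levels were 188 to 352 CPM in type B nuclei, 0 to 89.0 CPM in type A nuclei and 68.8 to 97.4 CPM in principal nuclei. Casr was higher in type B nuclei than in both (against type A log2 fold change 3.40, SE 0.85, adjusted p = 0.000525, and against principal nuclei log2 fold change 1.63, SE 0.23, adjusted p = 2.56e-07). Of 12 tested against type A it was the one higher gene, and Adgrf5 the one lower, with a median of -0.23, while 2.89% of all genes tested were higher and 2.08% lower. Against principal nuclei 19 were tested, with 7 higher, 5 lower and a median of -0.32, beside 7.82% higher and 8.84% lower over all genes.

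Among the higher receptors was Avpr1a, a vasopressin receptor (189.7 to 239.8 CPM in type B and 0 to 6.28 CPM in principal nuclei, log2 fold change 5.57, SE 0.10, adjusted p = 4.06e-14). Oxgr1, the alpha-ketoglutarate receptor through which type B cells raise salt uptake, was higher too (303 to 522 CPM in type B and 8.70 to 37.7 CPM in principal nuclei, log2 fold change 4.12, SE 0.21, adjusted p = 2.86e-15). The others were Kit, the prostaglandin receptor Ptger3, Adgrf5, Casr and the glucocorticoid receptor Nr3c1, with log2 fold changes of 4.37 for Kit, 3.45 for Ptger3, 1.93 for Adgrf5 and 1.43 for Nr3c1. Oxgr1 did not pass the test against type A nuclei (log2 fold change -0.58, SE 0.24, adjusted p = 0.277). The lower ones were Avpr2, Hsd11b2, Egfr, Igf1r and Insr, of which Insr was under 2-fold without MRL/lpr 6 weeks, at -0.89. The mineralocorticoid receptor Nr3c2 had 821 to 1030.5 CPM in type B and 1549.7 to 2023 CPM in principal nuclei (log2 fold change -0.93, SE 0.12, adjusted p = 9.08e-07), just under 2-fold.

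Transcription factor and cell fate genes numbered 22. Jag1, a ligand of Notch receptors, had 62 UMIs in MRL/lpr and 56 UMIs in C57BL/6 at 6 weeks, and 31 UMIs in MRL/lpr and 35 UMIs in C57BL/6 at 10 weeks. Levels were 247 to 377 CPM in type B, 0 to 97.7 CPM in type A and 10.2 to 31.4 CPM in principal nuclei, without overlap. Jag1 was higher in both tests (against type A log2 fold change 2.49, SE 0.70, adjusted p = 0.000675, and against principal nuclei log2 fold change 3.89, SE 0.37, adjusted p = 2.49e-13). Without C57BL/6 6 weeks the adjusted p against type A was 0.0537. The ligand Dll1 had 33 UMIs in type B and none in type A nuclei, and was too low for the test. The receptor Notch2 and Mib1, a ligase that activates Notch ligands, were lower than in principal nuclei (-3.34 and -1.61 on the log2 scale), as were the principal and distal factors Gata3 and Tfap2b (-1.40 and -3.10). Against type A 12 genes were tested, 2 were higher (Hmx2 and Jag1) and none lower, with a median of -0.06, beside 2.89% higher and 2.08% lower over all genes. Against principal nuclei 15 were tested, 4 higher (Hmx2, Foxi1, Jag1 and Foxp1) and 4 lower, with a median of 0.19, beside 7.82% higher and 8.84% lower over all genes.

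MRL/lpr and C57BL/6 type B nuclei were compared as ratios of CPM with conditional exact 95% intervals, which cover counting error only, for the 4925 genes whose type B UMIs came to 30 or more over the libraries. A gene was counted on the size of its ratio alone, and a library at 0 UMIs was set to 3. The genes farthest apart at both ages included Colec12, Gm3336, Nlgn1, Stam2 and Dkk3, higher in MRL/lpr, and Tmem61, Rnaset2b and Il11ra1, lower in MRL/lpr. At least 2-fold differences were seen at 6 weeks in 320 genes higher (6.5%) and 357 lower (7.25%) in MRL/lpr, and at 10 weeks in 397 higher (8.06%) and 414 lower (8.41%). At both ages 95 genes were higher (1.93%) and 85 lower (1.73%), and 25 (0.508%) went in opposite directions. The median log2 ratio over all 4925 genes was -0.02 at each age. Of the 95 genes, 81 were above the level of proximal nuclei in both MRL/lpr libraries, and of the 85, 69 were above it in both C57BL/6 libraries. These counts only sort the genes for naming, since the genes were chosen as high in the same libraries. The share over all 4925 genes was not taken, so nothing is concluded from the counts.

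Slc26a4, Slc4a9 and Insrr chose the nuclei, so their strain ratios, all within 2-fold at each age, are a description. Hmx2, outside the gate, was within 2-fold at each age as well. Of the 14 shared intercalated, 20 transport (Slc26a4 and Slc4a9 among them) and 21 proton pump genes compared, 0 were 2-fold apart in the same direction at both ages. Over all genes the shares were 1.93% higher and 1.73% lower, so a count of 0 in lists of this size is near the background. The transcriptional coactivator Ppargc1a, with 87 UMIs in MRL/lpr and 171 UMIs in C57BL/6 at 6 weeks, and 87 UMIs in MRL/lpr and 205 UMIs in C57BL/6 at 10 weeks, was 2-fold or more below C57BL/6 in MRL/lpr at each age. So was the kinase Wnk4, a regulator of distal salt transport, with 19 UMIs in MRL/lpr and 66 UMIs in C57BL/6 at 6 weeks, and 25 UMIs in MRL/lpr and 60 UMIs in C57BL/6 at 10 weeks. Both MRL/lpr values lay below both C57BL/6 values for these genes. In MRL/lpr Ppargc1a had log2 ratios of -1.13 at 6 weeks and -1.01 at 10 weeks, and Wnk4 -1.95 and -1.04.

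Colec12, a scavenger receptor of the collectin family, had 1819 UMIs in MRL/lpr and 7 UMIs in C57BL/6 at 6 weeks, and 1032 UMIs in MRL/lpr and 3 UMIs in C57BL/6 at 10 weeks. At 6 weeks its level was higher in MRL/lpr by 234-fold (95% interval 113 to 583), and at 10 weeks by 402-fold (95% interval 137 to 1953). Principal and proximal nuclei showed the same split, with 10757 CPM in MRL/lpr and 63.5 CPM in C57BL/6 principal nuclei at 6 weeks, and 7769 CPM in MRL/lpr and 18.8 CPM in C57BL/6 principal nuclei at 10 weeks. Stam2, a sorting protein of endosomes, Rims2, an active zone protein, Bbs9, a ciliary transport subunit, and Gm3336 were also seen in principal nuclei, at 280 to 631 CPM in MRL/lpr and 0 to 113 CPM in C57BL/6. Tmtc2 had 123 CPM in MRL/lpr and 95.2 CPM in C57BL/6 principal nuclei at 6 weeks, and 183 CPM in MRL/lpr and 56.5 CPM in C57BL/6 at 10 weeks.

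A few genes apart between strains had at most 17.3 CPM in proximal nuclei in any library. Clec1a, a C-type lectin receptor, had 29 UMIs in MRL/lpr and 0 UMIs in C57BL/6 at 6 weeks, and 21 UMIs in MRL/lpr and 0 UMIs in C57BL/6 at 10 weeks. Against a floor of 3 UMIs per library the 6-week level in MRL/lpr was 8.71-fold or more above C57BL/6, and the 10-week level 8.18-fold or more. Its level was 1.30 to 3.32 CPM in proximal and 4.35 to 9.42 CPM in principal nuclei. Nlgn1, a synaptic adhesion molecule, had 80 UMIs in MRL/lpr and 2 UMIs in C57BL/6 at 6 weeks, and 83 UMIs in MRL/lpr and 0 UMIs in C57BL/6 at 10 weeks. At 6 weeks it was higher in MRL/lpr by 36.0-fold (95% interval 9.66 to 303), and at 10 weeks by 32.3-fold at least. It stood at 3.62 to 10.2 CPM in proximal and 0 to 78.3 CPM in principal nuclei. Dkk3, a secreted protein of the Dickkopf family, had 55 UMIs in MRL/lpr and 5 UMIs in C57BL/6 at 6 weeks, and 44 UMIs in MRL/lpr and 0 UMIs in C57BL/6 at 10 weeks. The MRL/lpr level was 9.91-fold (95% interval 4.00 to 31.7) that of C57BL/6 at 6 weeks and 17.1-fold or more at 10 weeks, with at most 6.28 CPM in proximal and 10.2 CPM in principal nuclei. Plac8, a small cysteine-rich protein gene, had 20 UMIs in MRL/lpr and 2 UMIs in C57BL/6 at 6 weeks, and 28 UMIs in MRL/lpr and 0 UMIs in C57BL/6 at 10 weeks. In type A nuclei of MRL/lpr, Nlgn1 had 5 UMIs at 6 weeks and 2 at 10 weeks, and Dkk3 had 2 at 6 weeks and 5 at 10 weeks. Clec1a had 2 UMIs there at 6 weeks and 3 at 10 weeks, and Plac8 had 1 at 6 weeks and 2 at 10 weeks. Type A nuclei of C57BL/6 had no UMI of these 4 genes.

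Tmem61 was the reverse case, with 2 UMIs in MRL/lpr and 55 UMIs in C57BL/6 at 6 weeks, and 1 UMI in MRL/lpr and 51 UMIs in C57BL/6 at 10 weeks in type B nuclei. It was lower in MRL/lpr by 30.5-fold (95% interval 8.06 to 258) at 6 weeks, and by 43.6-fold (95% interval 7.49 to 1756) at 10 weeks. Type A nuclei had 0 UMIs in MRL/lpr and 21 in C57BL/6 at 6 weeks, and 1 in MRL/lpr and 16 in C57BL/6 at 10 weeks, and proximal nuclei had at most 5.69 CPM. Abr, a GTPase-activating protein for Rac, had 27 UMIs in MRL/lpr and 104 UMIs in C57BL/6 at 6 weeks, and 27 UMIs in MRL/lpr and 102 UMIs in C57BL/6 at 10 weeks. Principal nuclei showed the same split of Abr, with 232 CPM in MRL/lpr and 804 CPM in C57BL/6 at 6 weeks. At 10 weeks they had 183 CPM in MRL/lpr and 870 CPM in C57BL/6, and proximal nuclei had 44.6 to 61.2 CPM over the libraries. Rnaset2b, a lysosomal ribonuclease, had 2 UMIs in MRL/lpr and 41 UMIs in C57BL/6 at 6 weeks, and 0 UMIs in MRL/lpr and 24 UMIs in C57BL/6 at 10 weeks. Proximal nuclei showed the same split of Rnaset2b, with 8.40 CPM in MRL/lpr and 96.5 CPM in C57BL/6 at 6 weeks. At 10 weeks they had 5.53 CPM in MRL/lpr and 71.3 CPM in C57BL/6. Il11ra1, the interleukin 11 receptor, had 4 UMIs in MRL/lpr and 21 UMIs in C57BL/6 at 6 weeks, and 1 UMI in MRL/lpr and 12 UMIs in C57BL/6 at 10 weeks. Rnaset2b and Il11ra1 both have near-identical copies in the genome, so their counts are uncertain. The other named genes lower in MRL/lpr were Ccdc28b, S100a11, 1110032A03Rik, Plcd3, the serotonin receptor Htr2c, Ccdc59 and Epn3. Whether strain differences in sequence changed what was counted was not tested.

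Proximal RNA in type B nuclei stood at 8.97% of the proximal level in MRL/lpr and 6.94% in C57BL/6 at 6 weeks. At 10 weeks it stood at 5.32% in MRL/lpr and 5.66% in C57BL/6. Genes that were above the proximal level in only 1 library of the higher strain, or in none, are read with this in view. Among them were Cndp1 (36 UMIs in MRL/lpr and 0 UMIs in C57BL/6 at 6 weeks, and 20 UMIs in MRL/lpr and 0 UMIs in C57BL/6 at 10 weeks), 5730522E02Rik, Osbpl6, Slit3, Tmem150a and Aspdh, higher in MRL/lpr. Those lower were Pttg1, the mitotic protein securin (0 UMIs in MRL/lpr and 19 UMIs in C57BL/6 at 6 weeks, and 0 UMIs in MRL/lpr and 11 UMIs in C57BL/6 at 10 weeks), Fnip2, Elob, Myo5b, Sigirr and Hspa8. Proximal nuclei had 7.96 CPM of Pttg1 in MRL/lpr and 89.2 CPM in C57BL/6 at 6 weeks, and 7.28 CPM in MRL/lpr and 81.7 CPM in C57BL/6 at 10 weeks. C57BL/6 type B nuclei had 128 CPM of Pttg1 at 6 weeks and 77.6 CPM at 10 weeks. In MRL/lpr at 6 weeks Cndp1 had 218 CPM in type B and 170 CPM in proximal nuclei. At 10 weeks it had 165 CPM in type B and 190 CPM in proximal nuclei of MRL/lpr. The principal cell water channel Aqp2 was at 582 CPM in MRL/lpr and 188 CPM in C57BL/6 type B nuclei at 6 weeks, and at 124 CPM in MRL/lpr and 77.6 CPM in C57BL/6 at 10 weeks. Slc12a1, the salt carrier of the thick ascending limb, had 3 UMIs in MRL/lpr and 36 UMIs in C57BL/6 at 6 weeks, and 15 UMIs in MRL/lpr and 41 UMIs in C57BL/6 at 10 weeks. The part of principal and thick limb RNA in the strain ratios was not tested.

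**Figure D5:**
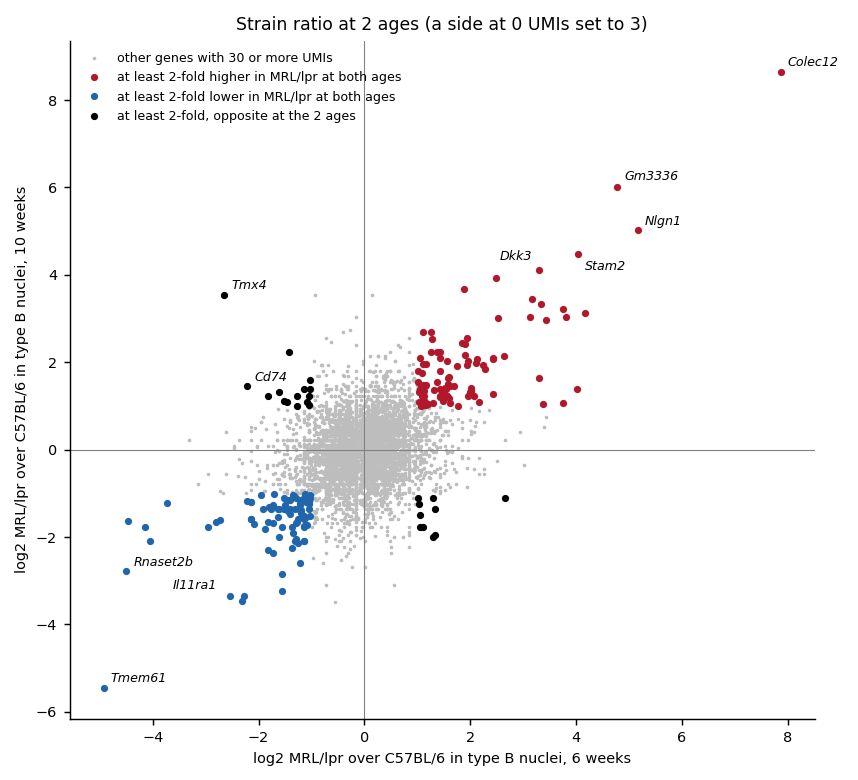
Log2 ratio of MRL/lpr over C57BL/6 in type B nuclei at 6 weeks (horizontal) and 10 weeks (vertical) for 4925 genes, with a library at 0 UMIs set to 3. Red marks the 95 genes 2-fold or more above C57BL/6 at each age, blue the 85 that are as far below, and black the 25 that go in opposite directions.

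Inflammatory and injury genes were sparse in type B nuclei. Of 25 interferon and antigen presentation genes 5 reached 30 UMIs, and the list summed to 806 CPM in MRL/lpr and 1097 CPM in C57BL/6 at 6 weeks, and 1278 CPM in MRL/lpr and 1079 CPM in C57BL/6 at 10 weeks. Principal nuclei had 1470.4 to 2192 CPM. The class I gene H2-K1 had 10 UMIs in MRL/lpr and 23 UMIs in C57BL/6 at 6 weeks, and 15 UMIs in MRL/lpr and 36 UMIs in C57BL/6 at 10 weeks. It was the 1 gene of the 5 that lay 2-fold or more below C57BL/6 at each age, beside 1.73% over all genes compared. Compared with principal nuclei, H2-K1, H2-Ab1 and Cd74 were lower among 6 tested, beside 8.84% lower over all genes. Log2 fold changes were -1.27 for H2-Ab1 and -1.72 for Cd74. H2-Ab1 had an adjusted p of 0.125 by DESeq2 and of 0.139 by edgeR without C57BL/6 10 weeks, and H2-K1 was under 2-fold without either MRL/lpr library, at -0.89 without 6 weeks and -0.93 without 10 weeks. Macrophage and dendritic markers, Cd74 among them, summed to 54.6 to 231 CPM in type B and 291 to 515 CPM in principal nuclei, and their part in these differences was not tested. Against type A nuclei H2-D1 was called lower among 4 tested, beside 2.08% lower over all genes (log2 fold change -1.17, SE 0.20, adjusted p = 0.0171). This call was lost by DESeq2 (adjusted p = 0.155) and by edgeR without any 1 of the libraries (adjusted p = 0.0531 to 0.222). Kidney injury genes Lcn2, Havcr1 and Vcam1 had no UMI in 901 type B nuclei. By a limit of 3 counts, 1.23 to 1.56% of the nuclei of a library could hold a UMI. Spp1, osteopontin, had 1315 CPM in MRL/lpr and 1312 CPM in C57BL/6 at 6 weeks, and 1402 CPM in MRL/lpr and 1418 CPM in C57BL/6 at 10 weeks. Principal nuclei had 1037 to 1680.3 CPM of Spp1 (log2 fold change -0.05, SE 0.14, adjusted p = 0.827), and Clu was lower than in principal nuclei (log2 fold change -2.99, SE 0.17, adjusted p = 3.2e-14).

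The ages were compared in the same way within each strain. At 10 weeks 267 genes were 2-fold or more above 6 weeks (5.42%) and 324 below (6.58%) in MRL/lpr, and 254 above (5.16%) and 280 below (5.69%) in C57BL/6. In both strains together 25 were above (0.508%) and 32 below (0.65%), and 35 (0.711%) went in opposite directions. Early response genes were among the higher ones, with Egr1, Jun and Jund, 3 of the 7 compared of this list. In MRL/lpr Egr1 had 7 UMIs at 10 weeks and 0 at 6 weeks, and in C57BL/6 34 UMIs at 10 weeks and 4 at 6 weeks. Fos had 12 UMIs at 10 weeks and 11 at 6 weeks in MRL/lpr, and 56 at 10 weeks and 6 at 6 weeks in C57BL/6. After thinning to 400 UMIs, Fos was seen in 5.62% of type B nuclei at 10 weeks and 3.67% at 6 weeks in MRL/lpr, and in 13.4% (95% interval 9.14 to 18.6%) at 10 weeks and 1.78% at 6 weeks in C57BL/6. Unthinned, the shares were 6.25% at 10 weeks and 4.46% at 6 weeks in MRL/lpr, and 15.2% at 10 weeks and 1.65% at 6 weeks in C57BL/6. In proximal nuclei the share with Fos was 0.0251 to 0.149% thinned and 0.0733 to 0.207% unthinned. A UMI of Fos or Egr1 was found in 52 of the 243 type B nuclei of C57BL/6 10 weeks, and in 8 to 15 nuclei of each other library.

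Other genes higher at 10 weeks in both strains were Cacnb4, a calcium channel subunit, Crebrf, Abca13, Ier2, also an early response gene, and Majin. Abca13 had 41 UMIs at 10 weeks and 7 at 6 weeks in MRL/lpr, and 32 at 10 weeks and 12 at 6 weeks in C57BL/6. Mgat4c, Acad12, Ifitm2, Idh3a, Slc25a13 and Rnft1 were lower. Acad12 had 6 UMIs at 10 weeks and 23 at 6 weeks in MRL/lpr, and 6 at 10 weeks and 20 at 6 weeks in C57BL/6. Mitochondrially encoded RNA in type B nuclei summed to 1171 CPM at 10 weeks and 2049 CPM at 6 weeks in MRL/lpr. In C57BL/6 it summed to 2018 CPM at 10 weeks and 2240 CPM at 6 weeks. With these and ribosomal protein UMIs left out of the CPM total, 25 genes were higher and 33 lower with age in both strains. With them kept in, 25 were higher and 32 lower. Any other part of mitochondrially encoded RNA in the age ratios was not tested.

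Markers of neighbouring tubule cells were lower than in principal nuclei in all 4 principal cell genes and all 4 connecting tubule genes tested, beside 8.84% lower over all genes. Scnn1b, a subunit of the epithelial sodium channel (log2 fold change -1.69, SE 0.49, adjusted p = 0.0109), and Slc8a1 (log2 fold change -1.33, SE 1.04, adjusted p = 0.00215) were lower than in type A nuclei. Slc8a1 stood at 948 to 1218 CPM in type B and 4359 to 4981 CPM in type A nuclei in 3 libraries, and at 1397 CPM in type B and 337 CPM in type A nuclei of C57BL/6 10 weeks, where the direction was the opposite. DESeq2 called none of the 3 connecting tubule genes tested against type A (adjusted p = 0.857 for Slc8a1), and edgeR gave an adjusted p for Slc8a1 of 0.175 without MRL/lpr 6 weeks and 0.446 without C57BL/6 6 weeks. Scnn1b had an adjusted p of 0.0655 without MRL/lpr 10 weeks, 0.0514 without C57BL/6 6 weeks and 0.126 without C57BL/6 10 weeks. None of 9 proximal tubule genes tested was called against principal nuclei by edgeR or DESeq2 and 0 had an unadjusted p under 0.05, with a median of -0.03. Both gates set the same limit on proximal UMIs, which restricts the difference that could be seen, so nothing is concluded from this. Of 18 circadian clock genes 7 were tested against principal nuclei, and Per2 and Rora were lower, at -2.20 and -1.60 on the log2 scale. Of 12 early response and stress genes 5 were tested there, and Jun, Jund and Gadd45g were higher, at 3.01, 1.54 and 1.30. Over all genes tested against principal nuclei, 7.82% were higher and 8.84% lower. Without C57BL/6 10 weeks Gadd45g was under 2-fold, at 0.85.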

How the data were processed

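The deposited values are raw UMI counts per gene and barcode for 25636 genes in 4 libraries, made by the authors with Cell Ranger (version 5.0.0 per the file headers, 3.1.0 per the submitters' processing notes); the genome build is not given in the sources used here. Nuclei were isolated on an iodixanol gradient and made into 10x 3′ libraries, per the labels' protocols, while the series' design text speaks of single cells. Barcodes were gated as the results state. Genes of the gates of both classes compared were left out of that test. Counts were summed per library and class and tested with edgeR 4.0.16 (TMM scaling, filterByExpr, library as block) after a test on simulated data. The blocks come from nuclei of the same library. DESeq2 1.42.0 was run as an alternative. The labels do not say how many animals a library holds, and the 4 libraries differ in strain and age. The p-values rest on how the class difference varies over these 4 libraries, with each gene's variance drawn toward that of other genes. This spread may be technical and can also hold strain and age effects on the class difference. Members and lists were chosen with earlier results of these data known.

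Named genes are all list members and, in each class comparison and direction, the 12 with the largest fold change among called genes that moved alike in 4 of 4 libraries and had at least 40 UMIs. For strain, the 12 with the largest smaller ratio of both ages are named among genes above the proximal level in both libraries of the higher strain. A further 6 are named from the other genes, and for age 6 in each direction. A few genes that these rules name are not reported here. Alternatives were at least 3 own UMIs, at most 1 proximal UMI, at least 400 UMIs, other scaling, no filter, no block, each library left out, at least 15 or 60 UMIs a gene and subtraction of proximal RNA. For the ratios, CPM without mitochondrially encoded and ribosomal protein UMIs was a further alternative. The wider type A gate was chosen after seeing the data. Scrublet (scanpy 1.11.5) marked 19 type B nuclei in MRL/lpr and 23 in C57BL/6 at 6 weeks, and 13 in MRL/lpr and 18 in C57BL/6 at 10 weeks. In MRL/lpr 6 weeks its automatic threshold marked few barcodes or none, and the highest scores at the expected rate were taken in its place. Marked nuclei were kept, and leaving them out was an alternative. Promoters are RefSeq sequences of GRCm38.p6. Python 3.11.15, numpy 2.4.6, scipy 1.17.1 and pandas 2.3.3 were used. All exact intervals cover counting error only.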

Additional observations from a re-analysis of the deposited data

Results flagged for a closer look

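In 5 genes the MRL/lpr to C57BL/6 ratio in type B nuclei lay on opposite sides of 0 at the 2 ages, with the 95% counting interval clear of 0 at both, and 3 of them are given here. The difference between the ages was not tested, since each group has 1 library. Tmx4, a thioredoxin-related membrane protein gene, had log2 ratios of -2.65 at 6 weeks and 3.55 at 10 weeks, from 3 UMIs in MRL/lpr and 17 in C57BL/6 at 6 weeks, and 10 in MRL/lpr and 1 in C57BL/6 at 10 weeks. Chmp3, a subunit of the ESCRT-III complex, had -1.43 at 6 weeks and 2.23 at 10 weeks, from 7 UMIs in MRL/lpr and 17 in C57BL/6 at 6 weeks, and 12 in MRL/lpr and 3 in C57BL/6 at 10 weeks.

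Cd74, the invariant chain of MHC class II, had log2 ratios of -2.22 at 6 weeks and 1.45 at 10 weeks, from 5 UMIs in MRL/lpr and 21 in C57BL/6 at 6 weeks, and 21 in MRL/lpr and 9 in C57BL/6 at 10 weeks. Without Cd74, the macrophage and dendritic markers had 4 UMIs in MRL/lpr and 11 in C57BL/6 at 6 weeks, and 7 in MRL/lpr and 4 in C57BL/6 at 10 weeks, and their part in the Cd74 ratios was not tested.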

How the results depend on the processing

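Genes named for the size of their change kept direction and call in all 262 values against type A and all 240 against principal nuclei that had an adjusted p. Of the genes named for strain or age, 3 (Abca13, Aspdh and Fnip2) moved by more than their counting interval. Of the called list members, 6 against type A (Car15, Clcn3, H2-D1, Jag1, Scnn1b and Slc8a1) and 6 against principal nuclei (Atp6v1e1, Gadd45g, H2-Ab1, H2-K1, Insr and Slc12a1) lost the call under at least 1 alternative, in 42 values. Uncalled members gained one in 27 values, and no called value reversed. Against type A these were Atp6v1c2, Cd74, Miox, Rhbg, Slc12a1, Spp1 and Umod. Against principal nuclei they were Egf, Egfl7, Flt1, H2-D1, Nr3c2, Podxl, Slc12a3 and Tef. Type B made up 93.3% of intercalated nuclei in MRL/lpr and 89.9% in C57BL/6 at 6 weeks, and 92.2% in MRL/lpr and 87.2% in C57BL/6 at 10 weeks with at least 3 own UMIs, 92.2% in MRL/lpr 10 weeks with at least 400 UMIs, and 71.6% in MRL/lpr and 68.9% in C57BL/6 at 6 weeks, and 66.4% in MRL/lpr and 67.5% in C57BL/6 at 10 weeks with the wider type A gate. Shares of all barcodes with at least 400 UMIs were 3.08% in C57BL/6 6 weeks, 2.36% in MRL/lpr and 2.92% in C57BL/6 at 10 weeks. Against type A, 35 genes were higher by DESeq2 and 137 with no filter, and 23 were lower with 3 own UMIs and 61 with the wider gate. Leaving out 1 library at a time gave 37 to 57 higher and 24 to 39 lower, 37 without C57BL/6 6 weeks and 24 without C57BL/6 10 weeks. Against principal nuclei no filter gave 606 higher and 759 lower, and leaving out 1 library 391 to 414 higher and 439 to 456 lower. With no replicate block the counts were 45 higher and 35 lower against type A, and 365 higher and 412 lower against principal nuclei, and Slc8a1 against type A (adjusted p = 0.0726) and H2-K1 against principal nuclei (just under 2-fold, adjusted p = 0.0312) lost the call. In the other settings the class comparisons were paired by library through the block. Strain and age ratios could not be paired, because each strain and age has 1 library. With at least 15 UMIs a gene, MRL/lpr was higher in 719 and lower in 817 genes at 6 weeks, higher in 857 and lower in 923 at 10 weeks, and higher in 193 and lower in 203 at both, and 106 genes were higher and 99 lower with age in both strains. With at least 60 UMIs these were 104 and 108, 112 and 129, 38 and 34, and 7 and 2. With proximal RNA subtracted, 40 genes were higher with age in both strains. The type A class is the smallest, with 26 to 59 nuclei in a library.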
